A study of Mus musculus with 8 samples.

Results

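Loops at 8 genes that regulate epithelial identity were described in Hi-ChIP of FOXA1 and HNF4G, in cells of a KPC mouse pancreatic tumor and of a liver metastasis (liver mets). The genes were Grhl1, Grhl2, Elf3, Ehf, Esrp1, Esrp2, Ovol1 and Ovol2, chosen by name, and the rule uses no loop value. A loop is a pair of anchors, genomic intervals on 1 chromosome that were joined in the library, and it was assigned to a gene when an anchor lay within 2 kb of an annotated start (GENCODE M21, mm10). Of the 8 genes, 6 had such an anchor. They held 10 of the 30542 anchors and 258 of the 249200 distinct loops, and 10786 of 21924 protein-coding genes had an anchor by the same rule.

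KPC is a genetically engineered mouse model of pancreatic ductal adenocarcinoma, and Hi-ChIP reads out contacts between distant fragments where a chosen protein is bound. The 8 samples formed 4 groups of 2 replicates: FOXA1 in tumor cells, FOXA1 in liver mets cells, HNF4G in tumor cells and HNF4G in liver mets cells. All were mouse pancreatic cancer cells of wild-type genotype, untreated and grown in DMEM with 10% FBS. The liver mets samples were labelled as a cell line. Per the paper, the tumor cells were a cell line too, and the tumor and liver mets lines were isogenic and matched. The study set the chromatin contacts of the factors in the primary context beside those in the metastatic context. Each group had 1 loop list for both replicates. The comparisons are therefore between lists, without a replicate check, and every interval below covers counting error only. The number of sequenced read pairs behind the lists is unknown. Whether a contact was weaker or was missed at lower depth cannot be told apart in such lists.

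GRHL proteins are grainyhead-like transcription factors that activate genes of epithelial junctions, and GRHL2 is the member most studied in carcinoma. ELF3 and EHF belong to the epithelium-specific branch of the ETS transcription factors. ESRP1 and ESRP2 are RNA-binding proteins that direct epithelial splice forms, among them those of Cd44, Fgfr2 and Enah, and OVOL1 and OVOL2 are zinc-finger repressors that hold back mesenchymal genes such as Zeb1. FOXA1 is a forkhead protein described as a pioneer factor, although the paper proposes that it does not act as one in pancreatic ductal adenocarcinoma. HNF4G is an orphan nuclear receptor.

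For Grhl2, Elf3, Ehf and Esrp2, the partner anchor of 1 loop in all 4 lists is shown by the stretch around its recognition letters. Among the gene's loops in all 4 lists, it had the highest lowest value, read as the −log10 of an adjusted p. That value can still be low: the Ehf loop had 0.697 in FOXA1 tumor. These are the distal fragments to which the results below return. The letters searched were TGTTTAC and TGTTTGC for FOXA proteins and CAAAGTCCA and the shorter AAGTCCA for HNF4, on both strands. The reference bases are on the plus strand of mm10, and the capitals mark the matches: FOXA letters at the partners of Grhl2, Ehf and Esrp2, and the shorter HNF4 letters at the partner of Elf3. The stretches are chr15:37135619-37135840, chr1:135178007-135178133, chr2:103325222-103325348 and chr8:106378931-106379057, in that order of genes as listed.
Grhl2 partner: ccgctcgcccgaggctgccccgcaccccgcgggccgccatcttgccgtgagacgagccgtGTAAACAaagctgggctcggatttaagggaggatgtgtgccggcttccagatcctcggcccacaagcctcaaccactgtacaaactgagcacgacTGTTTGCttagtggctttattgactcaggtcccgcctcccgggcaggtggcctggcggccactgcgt
Elf3 partner: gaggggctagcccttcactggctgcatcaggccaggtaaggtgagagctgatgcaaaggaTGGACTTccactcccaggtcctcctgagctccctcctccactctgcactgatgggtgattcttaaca
Ehf partner: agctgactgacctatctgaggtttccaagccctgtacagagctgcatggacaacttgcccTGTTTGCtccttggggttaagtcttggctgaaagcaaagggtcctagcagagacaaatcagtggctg
Esrp2 partner: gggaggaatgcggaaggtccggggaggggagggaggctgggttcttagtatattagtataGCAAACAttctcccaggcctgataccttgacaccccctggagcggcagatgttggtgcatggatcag

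A match is a description of the letters and not a binding site. The Grhl2 partner, 5684 bp wide, held 2 matches of each FOXA form, but 86.8% of all windows of that width centred on an anchor held at least 1 FOXA match. The Elf3 partner, 7715 bp wide, held 1 match of TGTTTAC and 1 of AAGTCCA, and windows of that width held FOXA letters in 93.2% and AAGTCCA in 70.6% of cases. The Ehf partner, 4176 bp wide, held 2 matches of TGTTTGC and 1 of AAGTCCA, against 78.4% and 48.5% of windows with a match. The Esrp2 partner, 2946 bp wide, held 1 match of TGTTTGC, against 67.4%. In the central 1000 bp, 78 of the 204 partner anchors of the member genes (38.2%) and 3 of their own 10 anchors had FOXA letters, against 36.8% of all anchors. The longer HNF4 letters were in 5 of the 204 partners (2.45%) and in none of the 10, against 1.75% of all anchors. The partners thus carried these letters about as often as other anchors did. Searched for the letters of the members' own families, the central 1000 bp of the 204 partners held CCGGTT (GRHL, part of AACCGGTT) in 14.7%, CCGTTA (OVOL) in 9.8% and CCGGAAG (ETS) in 10.3%, against 14.2%, 7.54% and 11% of all anchors. The whole AACCGGTT was in 0 of the 204, against 0.357% of all anchors. RefSeq promoter windows (GRCm38.p6), each searched over its 300 bases, were matched for 3 members, Grhl1 (2 windows), Elf3 and Ovol2. The only match to any of these letters was CCGGTT at Elf3, which 6.83% of 32851 promoters held.

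The members with an anchor differed widely in how many loops they had (the plot of loops per gene). Ehf, Grhl2, Esrp2 and Elf3 stood at percentiles of 81.8 to 96.7 among genes with an anchor, while Esrp1 and Ovol2 stood at 16.9 to 75.6. The median protein-coding gene with an anchor had 6 loops in the FOXA1 tumor list, 7 in FOXA1 liver mets, 5 in HNF4G tumor and 5 in HNF4G liver mets. Grhl1 (chr12:24572283-24617391) and Ovol1 (chr19:5549136-5560646) had no anchor and hence no loop in any list. The nearest anchor lay 68157 bp from a start of Grhl1 and 5213 bp from a start of Ovol1, so a limit of 5 kb would leave both genes without loops as well.

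**Figure D1:**
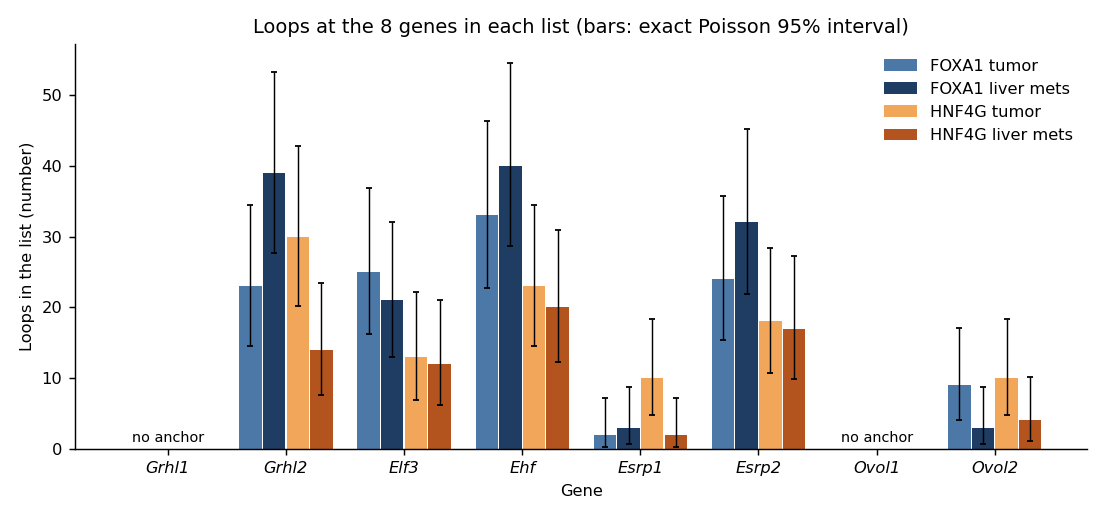
Number of loops at each of the 8 genes in the 4 lists, with exact Poisson 95% intervals as bars. Grhl2 stands between 14 loops in HNF4G liver mets and 39 in FOXA1 liver mets, Esrp1 reaches 10 only in HNF4G tumor, and Grhl1 and Ovol1 have no anchor.

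The summed loops of the members were 116 of 104136 in FOXA1 tumor, 138 of 125623 in FOXA1 liver mets, 104 of 76323 in HNF4G tumor and 69 of 78098 in HNF4G liver mets. The FOXA1 ratio of liver mets over tumor was 1.19 (exact 95% interval 0.923 to 1.54), beside 1.21 for all loops. The HNF4G ratio was 0.663 (0.482 to 0.908), beside 1.02 for all loops. The HNF4G lists thus held fewer member loops in liver mets than in tumor although the lists were of nearly equal length. The difference lay in loops of 100 kb or more. In tumor and liver mets, 18 and 11 spanned 100 to 200 kb and 32 and 13 spanned 200 to 500 kb. A further 11 and 6 spanned 500 to 1000 kb, and 8 and 2 spanned more. Shorter loops numbered 8 and 6 under 20 kb and 14 and 13 from 20 to 50 kb. From 50 to 100 kb they numbered 13 and 18. Without Grhl2 the HNF4G ratio over all spans was 0.743 (0.515 to 1.07) and with anchors within 5 kb it was 0.764 (0.568 to 1.02). Both intervals include 1. FOXA1 over HNF4G was 1.12 (0.849 to 1.47) in tumor, beside 1.36 for all loops, and 2 (1.49 to 2.71) in liver mets, beside 1.61 for all loops. These 4 ratios share lists with each other.

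Calls were made for genes with at least 10 loops in the lists compared, when the share of the list differed 1.5-fold or more. Between the HNF4G lists, 3 of 6 members (Grhl2, Esrp1 and Ovol2) were higher in tumor, where 19.5% of 5425 genes were, and 0 were higher in liver mets, where 12.7% of genes were. Between the FOXA1 lists, 1 of 5 members (Ovol2) was higher in tumor, against 15.2% of 6862 genes, and 0 were higher in liver mets, against 11.4%. In tumor, the same 3 members (Grhl2, Esrp1 and Ovol2) of 6 were higher for HNF4G than for FOXA1, against 22.0% of 6034 genes, and 0 were higher for FOXA1, against 13.5%. In liver mets, 1 of 4 members (Grhl2) was higher for FOXA1, against 12.9% of 6342 genes, and 0 were higher for HNF4G, against 19.4%. With 4 to 6 members per comparison these counts are small, and both tumor contrasts use the same HNF4G tumor list.

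Grhl2 (chr15:37233036-37363569, plus strand) had 2 anchors and 64 distinct loops. Its loops numbered 23 in FOXA1 tumor, 39 in FOXA1 liver mets, 30 in HNF4G tumor and 14 in HNF4G liver mets. The liver mets over tumor ratio was 1.7 for FOXA1 (0.988 to 2.97) and 0.467 for HNF4G (0.229 to 0.908). The FOXA1 interval includes 1 and the HNF4G interval does not, and the difference of these ratios was not tested. The raw numbers of Ehf, Esrp1 and Esrp2 were also higher for FOXA1 and lower for HNF4G in liver mets. The FOXA1 liver mets list is, however, longer than the FOXA1 tumor list. Divided by list length, the FOXA1 ratio was 1 (0.618 to 1.64) for Ehf, 1.24 (0.142 to 14.9) for Esrp1 and 1.11 (0.631 to 1.96) for Esrp2. For Grhl2 it was 1.41 (0.819 to 2.47). The HNF4G intervals of Ehf and Esrp2 include 1. In liver mets Grhl2 had 2.79 times as many FOXA1 as HNF4G loops (1.48 to 5.55), which became 1.73 (0.92 to 3.45) once each number was divided by the length of its list. With a limit of 5 kb in place of 2 kb, Grhl2 had 4 anchors and 36 HNF4G loops in tumor against 29 in liver mets, so the size of its HNF4G difference rests on the anchors within 2 kb. The HNF4G difference was larger at the anchor of the main start, chr15:37232085-37233379. It had 18 HNF4G loops in tumor against 5 in liver mets, a ratio of 0.278 (0.0806 to 0.776). That anchor had 7 FOXA1 loops in tumor and 13 in liver mets, and it also lies within 2 kb of a start of Gm16136, so the loops of these genes cannot be told apart. The other anchor, chr15:37315979-37321648, lies inside the gene 85.8 kb downstream of the main start, at the start of a processed transcript. It had 17, 27, 13 and 9 loops in FOXA1 tumor, FOXA1 liver mets, HNF4G tumor and HNF4G liver mets.

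The strongest contact of Grhl2 joined this internal anchor with the partner shown above, chr15:37133769-37139452, which lies between genes 96.4 kb upstream of the main start. Its value, read as the −log10 of an adjusted p, was 20 in FOXA1 tumor and 20 in FOXA1 liver mets, the highest value the lists contain, 4.88 in HNF4G tumor and 5.17 in HNF4G liver mets. The same partner was joined with the main start in all 4 lists at much lower values, 0.472, 0.378, 0.948 and 1.22 in the same order. A neighbouring fragment 110 kb upstream, chr15:37119837-37126043, was joined with the internal anchor at 4.77 in FOXA1 tumor, 13.1 in FOXA1 liver mets and 1.71 in HNF4G tumor, and was not listed in HNF4G liver mets. It was joined with the main start only in the HNF4G lists, at 1.24 in tumor and 1.4 in liver mets. A fragment 300 kb upstream, at starts of Gm34590 and Gm41300, was joined with the internal anchor at 8.37 in FOXA1 tumor, 1.72 in FOXA1 liver mets and 6.08 in HNF4G tumor.

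**Figure D2:**
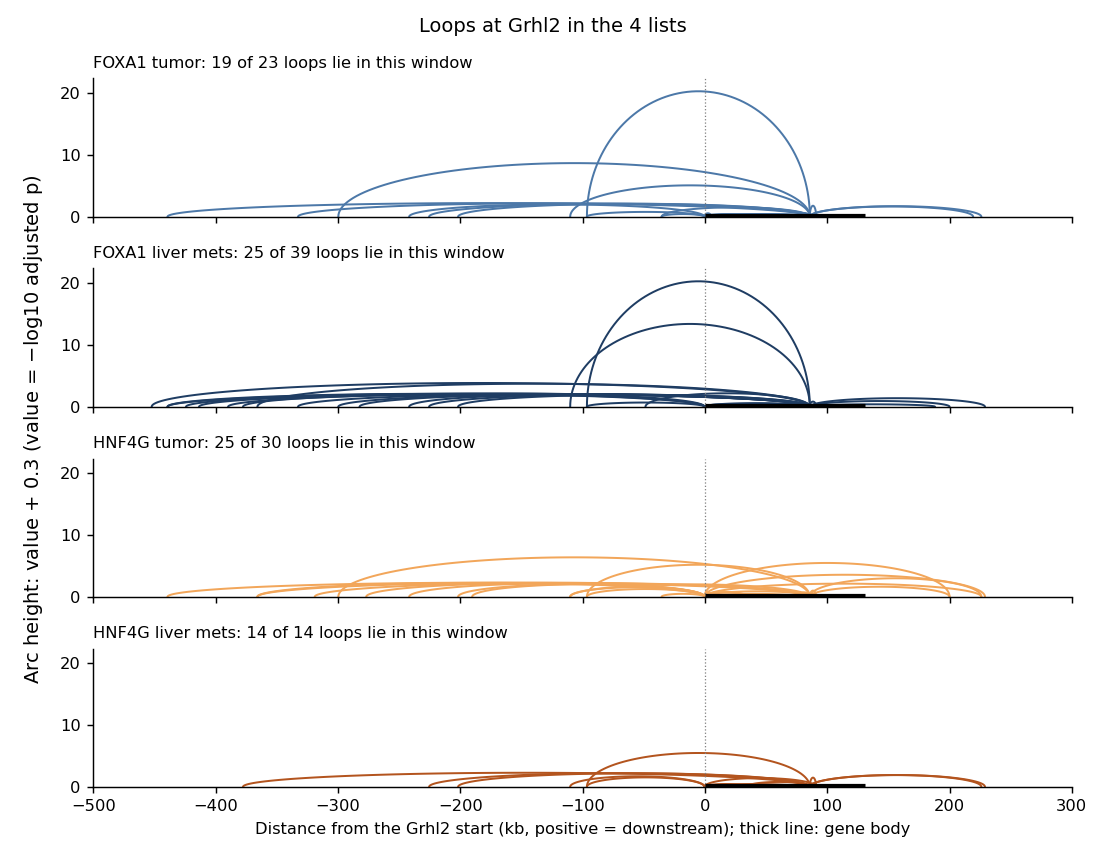
Loops at Grhl2 within 500 kb upstream and 300 kb downstream of its start in the 4 lists, where each arc joins the midpoints of the anchors and its height is the value plus 0.3. The tall arc from 96.4 kb upstream to the internal anchor is in every list, at a value of 20 in both FOXA1 lists.

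Near and distant partners of Grhl2 were counted apart, since short loops are shared more often in general. Of all loops with a promoter anchor, 33.3% of those under 20 kb and 8.2% of those from 50 to 100 kb were in all 4 lists. Of its 13 distinct loops with a partner under 100 kb from the start, 4 were in all 4 lists and 4 in 1 list, and of the 50 with a partner at 100 kb or more, 0 were in all 4 lists and 35 (70%) in 1 list. Among all promoter loops spanning 100 kb or more, 1.35% were in all 4 lists and 78% in 1 list. These shares go by span and not by distance from the start. The strongest loop of Grhl2 spans 182 kb and is in all 4 lists, but its partner puts it among the 13. The shares of the 50 are therefore not strictly comparable with the general ones. The distant loops numbered 13 in FOXA1 tumor, 32 in FOXA1 liver mets, 21 in HNF4G tumor and 6 in HNF4G liver mets. The FOXA1 liver mets list alone held 21 of the 64 loops, and the HNF4G tumor list alone held 12. No such share over all loops, list by list, is given here, and the lists differ in length. Anchors at starts or in the body of Ncald, which encodes the calcium sensor neurocalcin delta, accounted for 11 distinct loops, with 3, 5, 6 and 2 in FOXA1 tumor, FOXA1 liver mets, HNF4G tumor and HNF4G liver mets. The main start of Grhl2 reached them only in HNF4G tumor, at values of 5.17, 1.82, 3.26 and 3.91. The start of Rrm2b, a ribonucleotide reductase subunit, lay 642 kb from the internal anchor and was joined with it only in the FOXA1 lists, at 1.91 in tumor and 3.67 in liver mets. The median span of Grhl2 loops was 182 kb in FOXA1 tumor, 448 kb in FOXA1 liver mets, 201 kb in HNF4G tumor and 103 kb in HNF4G liver mets.

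Elf3 (chr1:135253575-135258568, minus strand) had 1 anchor, chr1:135255336-135260837, which held its main start. Its 39 distinct loops numbered 25 in FOXA1 tumor, 21 in FOXA1 liver mets, 13 in HNF4G tumor and 12 in HNF4G liver mets. The liver mets over tumor ratio was 0.84 (0.447 to 1.56) for FOXA1 and 0.923 (0.385 to 2.19) for HNF4G, and neither interval excludes 1. Of the 9 loops with a partner under 100 kb from the start, 5 were in all 4 lists and 0 were in 1 list alone. Short loops are shared more often in general. The share of all loops with a promoter anchor in all 4 lists was 33.3% under 20 kb, 15.8% from 20 to 50 kb and 8.2% from 50 to 100 kb. With 9 loops the count at Elf3 is small. The partner shown above, chr1:135177388-135185102, lies between genes 77.3 kb downstream and had values of 2.13, 4.76, 1.99 and 1.08 in FOXA1 tumor, FOXA1 liver mets, HNF4G tumor and HNF4G liver mets. The loop to the start of Gpr37l1, an orphan receptor gene 87.4 kb away, had 1.47, 2.28, 1.64 and 0.941, and a fragment 110 kb upstream had 0.986, 3.26, 1.23 and 1.37. For these 3 loops the highest of the 4 values was that of FOXA1 liver mets. The start of Rnpep, which encodes an aminopeptidase and lies 25 kb away, was also joined in all 4 lists, at values of 0.12 to 0.399.

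Other contacts of Elf3 were in some lists only. The start of Shisa4, 117 kb away, was joined at 6.5 in FOXA1 tumor, 1.65 in FOXA1 liver mets and 6.04 in HNF4G liver mets, and was not listed in HNF4G tumor. Lgr6, a receptor of the R-spondin pathway, was joined at its start over 238 kb in both liver mets lists only, at 2.84 for FOXA1 and 1.84 for HNF4G. A fragment inside Ptpn7, 115 kb away, was in both tumor lists only, at 1.08 and 2.23, and the start of Arl8a, 111 kb away, was in both FOXA1 lists only, at 1.91 and 1.85. Starts of Tnnt2, a muscle troponin gene, were reached at 3 different anchors that, 576 to 594 kb from Elf3, were each in 1 list.

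Ehf (chr2:103263433-103303278, minus strand) had the most distinct loops, 72, and 4 anchors. None of these overlapped an annotated start, and their distances to the nearest start were 539, 1485, 1817 and 1844 bp. An anchor rule without the 2 kb margin would therefore leave Ehf with 0 loops. The loops numbered 33 in FOXA1 tumor, 40 in FOXA1 liver mets, 23 in HNF4G tumor and 20 in HNF4G liver mets, so in each factor the lists differed by less than their counting error, with ratios of 1.21 (0.745 to 1.98) for FOXA1 and 0.87 (0.453 to 1.66) for HNF4G. In liver mets FOXA1 had 2 times the loops of HNF4G (1.14 to 3.61), and 1.24 times (0.71 to 2.24) after division by list length.

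Most contacts of Ehf near the gene reached a cluster of 4 fragments upstream of the main start. The nearest of them, the partner shown above (chr2:103324231-103328406, 23 kb upstream), was joined with each of the 4 Ehf anchors, in 3 loops in FOXA1 tumor, 4 in FOXA1 liver mets, 2 in HNF4G tumor and 4 in HNF4G liver mets. The fragment 44.1 kb upstream, inside A930006I01Rik, had the same numbers, 3, 4, 2 and 4. The fragment at 28.4 kb had 3, 4, 1 and 1 loops and that at 40.6 kb had 3, 3, 0 and 2. The cluster thus had 12, 15, 5 and 11 of its 15 distinct loops in the lists, the fewest in HNF4G tumor. The values in the cluster were mostly low, many at a tied value of the list, such as 0.123 in FOXA1 tumor and 0.0889 in FOXA1 liver mets. Read as the −log10 of an adjusted p, such values mark no significant contact. The loop numbers of the cluster therefore give list membership only. The loop from the anchor 9.12 kb inside the gene to the nearest fragment had 0.697 in FOXA1 tumor, 0.915 in FOXA1 liver mets, 0.902 in HNF4G tumor and 1.84 in HNF4G liver mets.

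**Figure D3:**
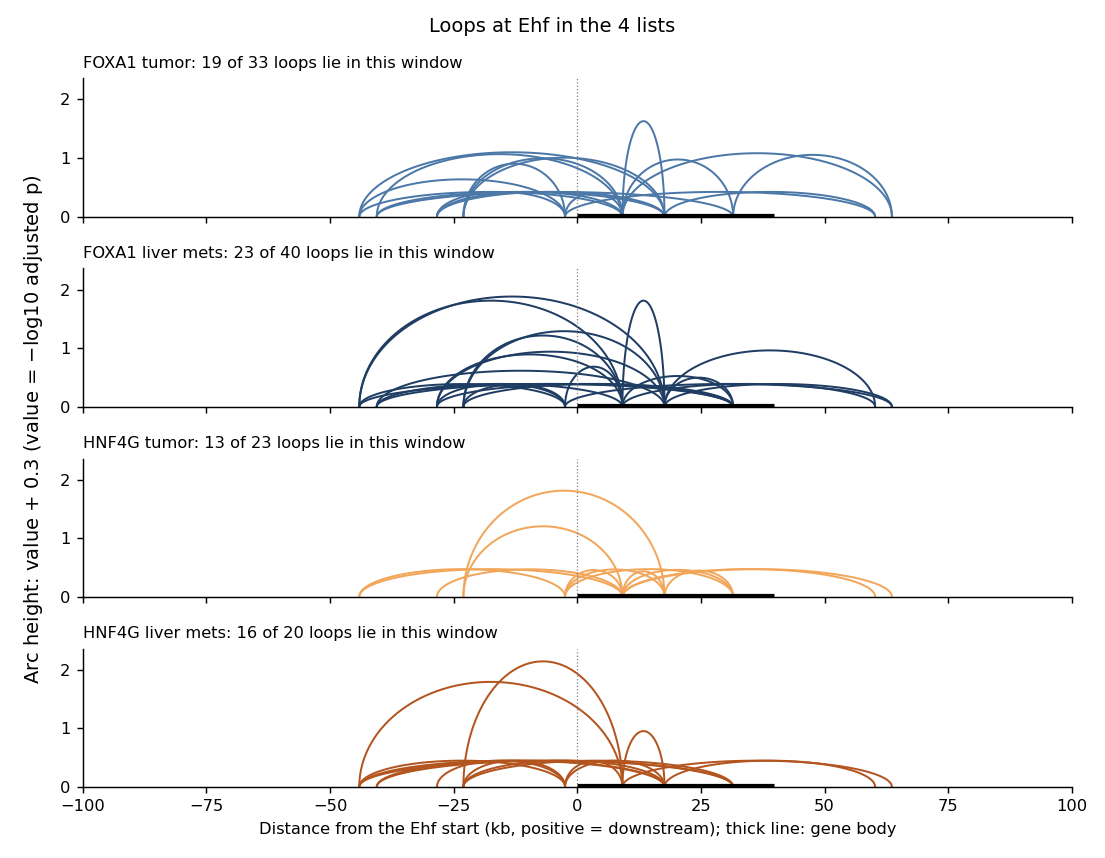
Loops at Ehf within 100 kb of its start in the 4 lists, where each arc joins the midpoints of the anchors and its height is the value plus 0.3. The cluster of fragments 23 to 44.1 kb upstream is joined in 12, 15, 5 and 11 loops in FOXA1 tumor, FOXA1 liver mets, HNF4G tumor and HNF4G liver mets.

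Distant loops of Ehf were mostly in 1 list, as distant promoter loops generally were. Of the 44 with a partner at 100 kb or more from the start, 43 (97.7%) were in 1 list and 0 in all 4, beside 78% and 1.35% of all promoter loops spanning 100 kb or more. The body of Cd44, which encodes the hyaluronan receptor and is itself a known target of ESRP splicing, had 7 such loops over 370 to 479 kb, 4 in FOXA1 tumor, 3 in FOXA1 liver mets and 0 in either HNF4G list. The 0 depends on the limits of the gene body. HNF4G tumor held loops to fragments on either side of Cd44, at 3.79 over 500 kb and at 1.93 over 380 kb. The latter fragment lay 12.7 kb from the Cd44 start. Pamr1 had 4 loops at its start over 721 to 755 kb, 1 in FOXA1 tumor and 3 in FOXA1 liver mets, and each came from a different anchor of Ehf. Such partners recurred between lists through different anchors of the same gene, which the count by anchor pair treats as different loops.

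Esrp1 (chr4:11331933-11386783, minus strand) had 1 anchor, chr4:11386396-11388948, and 13 distinct loops, none of them in all 4 lists. They numbered 2 in FOXA1 tumor, 3 in FOXA1 liver mets, 10 in HNF4G tumor and 2 in HNF4G liver mets. HNF4G tumor stood apart from the other 3 lists: the liver mets over tumor ratio for HNF4G was 0.2 (0.0213 to 0.939), and FOXA1 over HNF4G in tumor was also 0.2 (0.0213 to 0.939). All values were under 2, and the HNF4G lists shared 0 of their loops. The contact in most lists was with the start of Dpy19l4, 66.3 kb away, at 0.843 in FOXA1 tumor, 0.0889 in FOXA1 liver mets and 0.171 in HNF4G tumor. The starts of Trp53inp1 at 232 kb and of Rad54b, a DNA repair gene, at 171 kb were joined only in HNF4G tumor, at 1.8 and 1.66. That of Ints8, a subunit of the Integrator complex, was joined in FOXA1 liver mets at 1.06 and in HNF4G tumor at 1.49. The HNF4G liver mets list had a fragment inside Trp53inp1 at 1.84 and a fragment 622 kb away at 1.99. A fragment inside Cdh17, which encodes liver-intestine cadherin, was joined over 382 kb in FOXA1 liver mets alone, at 1.74.

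Esrp2 (chr8:106130319-106136974, minus strand) had 1 anchor, chr8:106133911-106141961, which is also within 2 kb of a start of 1810019D21Rik. Its 54 distinct loops numbered 24 in FOXA1 tumor, 32 in FOXA1 liver mets, 18 in HNF4G tumor and 17 in HNF4G liver mets. The liver mets over tumor ratios were 1.33 (0.761 to 2.37) for FOXA1 and 0.944 (0.457 to 1.94) for HNF4G, both with intervals that include 1. Unlike its paralog Esrp1, the gene stood at percentiles of 90 to 93.8 in the 4 lists. Its partners were mostly promoters: 31 of 54 loops (57.4%, Wilson 95% interval 44.2 to 69.7) ended within 2 kb of a start of another gene. At Ehf the share was 20.8% (13.1 to 31.6). Of all loops with a promoter anchor, 38.7% had starts at both anchors. That share counts each loop once, while a loop between starts is seen from the genes at both ends. It is thus lower than a share seen from a gene's own anchor and not directly comparable.

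The loops of Esrp2 in all 4 lists reached the starts of Pla2g15, a lysosomal phospholipase 12.6 kb away, and of the amino acid transporter Slc7a6 at 30.9 kb. They also reached a fragment inside Slc7a6 at 53.9 kb and the partner shown above inside the transcript Gm26786, 241 kb away. The last had values of 1.69, 1.52, 1.82 and 1.85 in FOXA1 tumor, FOXA1 liver mets, HNF4G tumor and HNF4G liver mets. All 4 lists held it and 2 others, 3 of the 198 member loops spanning 100 kb or more. That share of 1.52% stands beside 1.35% of all promoter loops of such span. The highest value of Esrp2 was 5.46, in FOXA1 tumor, at the start of Dpep2nb 130 kb away, which had 1.87 in FOXA1 liver mets and 1.56 in HNF4G liver mets. Cdh1, which encodes E-cadherin, the adhesion molecule of epithelial junctions, lies upstream of Esrp2 and was reached in 6 distinct loops over 466 to 509 kb. These numbered 1 in FOXA1 tumor, 3 in FOXA1 liver mets, 3 in HNF4G tumor and 0 in HNF4G liver mets. The start of Cdh1 was reached at 1.81 in FOXA1 liver mets and at 1.97 and 1.97, by neighbouring anchors, in HNF4G tumor. The start of Nutf2 was joined in both tumor lists only, at 3.19 and 1.85, and a fragment inside Tango6, 615 kb away, in both liver mets lists only, at 1.86 and 1.99.

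Ovol2 (chr2:144305175-144332146, minus strand) had 1 anchor, chr2:144330687-144333025, which is also within 2 kb of a start of 1700108N11Rik. Its 16 distinct loops numbered 9 in FOXA1 tumor, 3 in FOXA1 liver mets, 10 in HNF4G tumor and 4 in HNF4G liver mets, with none in all 4 lists. Both tumor lists were higher than both liver mets lists, but the ratios of 0.333 (0.058 to 1.34) for FOXA1 and 0.4 (0.0916 to 1.39) for HNF4G have intervals that include 1. Its contacts nearby reached starts of Kat14, which encodes a histone acetyltransferase subunit, at 37 kb in both tumor lists only and at 56.7 kb in the other lists and HNF4G tumor, at values of 0.123 to 0.306. Fragments between genes 110 and 120 kb upstream were joined in the tumor lists only. The former was in HNF4G tumor alone at 3.73, the highest value of Ovol2, and the latter was in FOXA1 tumor at 1.17 and HNF4G tumor at 2.41. The start of Dstn, which encodes the actin-depolymerizing protein destrin, was joined over 416 kb in the FOXA1 lists only, at 1.85 and 1.75. The start of Rrbp1, 322 kb away, was joined in HNF4G tumor only, at 3.57.

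**Figure D4:**
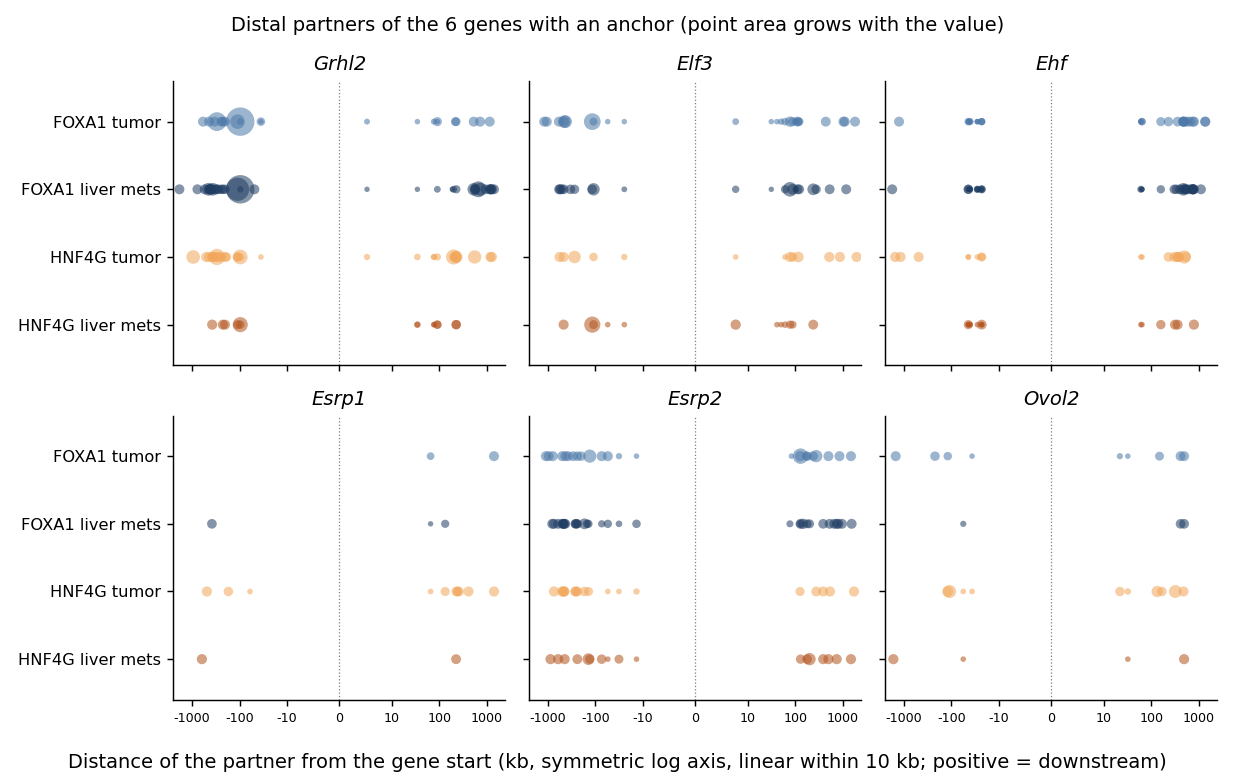
Distance of each distal partner from the start of the gene, for the 6 genes with an anchor and the 4 lists, on an axis that is linear within 10 kb and logarithmic beyond, with point areas that grow with the value. The upstream cluster of Ehf at 23 to 44.1 kb recurs in each list, and Esrp1 has 10 points in HNF4G tumor beside 2 or 3 elsewhere.

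Over all members, 20 of the 258 distinct loops (7.75%, 5.07 to 11.7) were in all 4 lists and 159 (61.6%) in 1 list, against 5.54% and 65.7% of all loops with a promoter anchor. The loops in all 4 lists were 6 of Elf3, 6 of Ehf, 4 of Grhl2, 4 of Esrp2 and 0 of Esrp1 and Ovol2. Being in all 4 lists does not mean a significant contact in each. A Grhl2 loop over 34.7 kb, for example, had values of 0.123, 0.0859, 0.486 and 0.146. These shares therefore give list membership only. Loops in 1 list numbered 61 for FOXA1 liver mets, 44 for FOXA1 tumor, 42 for HNF4G tumor and 12 for HNF4G liver mets. The lists differ in length, and the same split over all loops is not given here. Whether these numbers depart from that split was not tested. The FOXA1 lists shared 53 member loops, 45.7% of those in tumor and 38.4% of those in liver mets, beside 41.1% and 34% over all loops. The HNF4G lists shared 31, 29.8% of those in tumor and 44.9% of those in liver mets, beside 33.6% and 32.9%. Sharing fell with span (the plot of shared loops by span). Under 20 kb, 5 of 8 member loops were in all 4 lists (62.5%, 30.6 to 86.3), against 33.3% of promoter loops, and from 50 to 100 kb 6 of 28 were (21.4%, 10.2 to 39.5), against 8.2%. From 500 to 1000 kb 0 of 51 member loops and beyond that 0 of 30 were in all 4 lists.

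**Figure D5:**
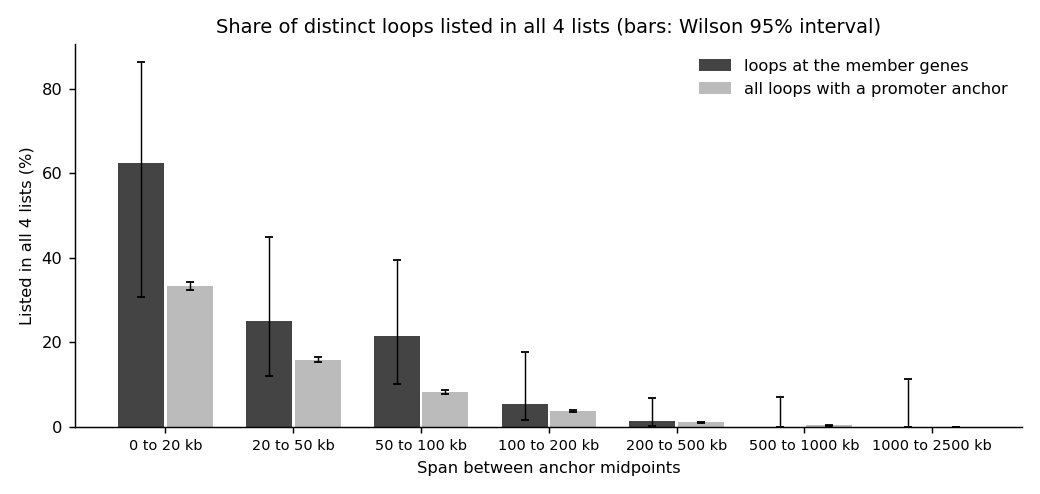
Share of distinct loops listed in all 4 lists by span, for loops at the member genes and for all loops with a promoter anchor, with Wilson 95% intervals. The member share falls from 62.5% under 20 kb to 1.25% from 200 to 500 kb, and the promoter loops fall from 33.3% to 1.07%.

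The median span of member loops was 144 kb in FOXA1 tumor, 274 kb in FOXA1 liver mets, 197 kb in HNF4G tumor and 87.4 kb in HNF4G liver mets, beside 150, 174, 142 and 123 kb for all loops with a promoter anchor. FOXA1 liver mets was thus the list with the longest and HNF4G liver mets the list with the shortest member loops. Without Grhl2 the FOXA1 liver mets median was 179 kb, a fall by more than 1.5 times. Loops of 100 kb or more made up 70.3% (62.2 to 77.3) of member loops in FOXA1 liver mets and 46.4% (35.1 to 58) in HNF4G liver mets. Over all members, 100 of 258 partners (38.8%, 33 to 44.8) were starts of other genes. A further 80 lay between genes, 62 inside another gene and 9 inside the same gene, and 7 loops joined anchors of the same gene. The 38.7% of all loops with a promoter anchor counts each loop once and is not directly comparable, as stated for Esrp2. Loops with a value of 2 or more numbered 11, 14, 14 and 5 in FOXA1 tumor, FOXA1 liver mets, HNF4G tumor and HNF4G liver mets, or 9.48%, 10.1%, 13.5% and 7.25% of the member loops, beside 7.84%, 9.33%, 7.32% and 7.21% of all loops. Between 18.8% and 33.3% of member loops per list had 1 of the list's commonest 2 tied values, such as 1.87 and 0.0889 in FOXA1 liver mets, so small differences between low values carry little weight.

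For each member the gene with the most similar numbers was sought among 8663 protein-coding genes, by the Euclidean distance of log2(loops + 1) over the 4 lists. These were Carns1 for Grhl2 (distance 0.304), Bok for Elf3 (0.171), Ccnd1 for Ehf (0.103), Tbc1d30 for Esrp1 (0.598), Nck2 for Esrp2 (0.15) and Dusp8 for Ovol2 (0.29). Carns1, chosen for its nearness to Grhl2, had 21, 33, 27 and 14 loops.

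Other genes of the epithelial program were read the same way. Of 22 targets and junction genes 19 had an anchor, and of the 15 with enough loops for the HNF4G lists, 7 were higher in tumor and 1 in liver mets, beside the 19.5% and 12.7% given above for all genes. Cldn3, a tight junction claudin, had 17 HNF4G loops in tumor and 9 in liver mets, and Epcam had 15 and 10. Between the FOXA1 lists, 1 of 15 was higher in tumor and 3 in liver mets, beside 15.2% and 11.4% of all genes. Cdh1 had 41 and 62 FOXA1 loops in tumor and liver mets and 42 and 28 HNF4G loops. Of the paralogs, Grhl3 had 25, 33, 23 and 21 loops, Spdef 26, 39, 16 and 25 and Ovol3 4, 7, 8 and 12 in FOXA1 tumor, FOXA1 liver mets, HNF4G tumor and HNF4G liver mets, and Elf5 had no anchor. Their summed HNF4G loops were 47 in tumor and 58 in liver mets. Of the 3 tested, 1 was called higher in liver mets and 0 in tumor, beside 12.7% and 19.5% of all genes. With 3 genes this gives no contrast with the members. All 7 repressors of the epithelial state had an anchor, with medians of 5, 6, 3 and 4 loops. Of these, 1 of 3 tested between the HNF4G lists was higher in tumor, beside 19.5% of all genes. The labelled cell type was checked only by which marker starts had an anchor, since loops are not expression: 11 of 11 ductal, 0 of 4 acinar, 1 of 4 hepatocyte, 2 of 4 fibroblast, 1 of 3 leukocyte and 0 of 3 endothelial markers had one. Summed loops of the hepatocyte markers were 4, 6, 1 and 5, all at Apoa1. Those of the fibroblast markers were 14, 17, 20 and 11, so their HNF4G number, like that of the members, was lower in liver mets. Of these Pdgfra had 2, 8, 14 and 5 and Col1a1 12, 9, 6 and 6, and Col1a2 and Pdgfrb had no anchor. Those of the leukocyte markers were 9, 8, 7 and 7, all at Cd68. The part of these markers in the differences between lists was not tested.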

How the data were processed

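Hi-ChIP for FOXA1 and HNF4G was analysed in 8 mouse samples, 2 replicates in each of 4 groups taken from the sample titles. Per the study's methods, the authors processed reads with HiC-Pro (3.1.0 per the labels, mm10, DpnII, duplicates removed) and called loops with hichipper. The authors deposited 1 loop list per group, and how replicates were joined is not given in the sources used here. The unnamed value per loop deposited by the authors was read as the −log10 of an adjusted p, since it forms runs of ties and ends at 20. It does not contain the number of read pairs, so depth is unknown.

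The members and gene lists were chosen with earlier results of these data known. Loops were assigned to genes by GENCODE M21 starts within 2 kb. A span is the distance between anchor midpoints, a shared loop has the same pair of anchors, and coordinates count from 1. The 95% intervals were exact (Clopper-Pearson, conditional on the sum) for ratios, Wilson for shares and exact Poisson for numbers. They take loops as independent, which loops with a common anchor are not. The ratio script was tested on simulated data. No test between groups was run. Named loops were, per gene, those in all 4 lists with the highest lowest value and the longest, and the best loop of both tumor, both liver mets, both FOXA1 or both HNF4G lists. Other loops named were chosen after their values were seen. Alternatives covered the distance to a start, the value, the span, the list length, the width of anchors and leaving out genes. Python 3.11.15, numpy 2.4.6, pandas 2.3.3 and scipy 1.17.1 were used, and sequences came from RefSeq GRCm38.p6.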

Additional observations from a re-analysis of the deposited data

How the results depend on the processing

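No paired analysis was possible because each group had 1 list for both replicates, so replicate numbers carry no values, and leaving out a replicate could not be done. Leaving out each gene in turn kept the HNF4G ratio of liver mets over tumor between 0.605 and 0.743 (0.515 to 1.07 without Grhl2), the FOXA1 ratio between 1.06 and 1.29, FOXA1 over HNF4G in tumor between 1 and 1.26 and in liver mets between 1.8 and 2.08. Only with a value of 2 or more, the HNF4G ratio was 0.357 (14 and 5 loops), FOXA1 over HNF4G was 0.786 in tumor and 2.8 in liver mets, and with a value of 4 or more the FOXA1 ratio was 0.8, from 4 and 5 loops. Division by list length gave 0.817 for FOXA1 over HNF4G in tumor and 1.24 in liver mets, and equal numbers of top-ranked loops gave 1.48 in liver mets. The share of loops in all 4 lists was 13.5% where at least 1 value reached 2 and 22.9% with anchors widened by 5 kb. The share of partners at starts of other genes was 31.8% when the anchor had to overlap the start and 31% for protein-coding genes alone. Counting only anchors that overlap a start left Ehf with 0 loops, a 5 kb limit gave Grhl2 29 loops in HNF4G liver mets beside 36 in HNF4G tumor, against 14 and 30, and starts of protein-coding transcripts alone left it 7, 13, 18 and 5. Division by list length and loops of 20 kb or more were added for single genes after the data were seen. Depth is unknown, so the smallest detectable contact is too.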
